A study of Mus musculus with 12 samples.

Results

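The 10 genes Trem2, Tyrobp, Clec7a, Axl, Apoe, Lpl, Gpnmb, Cd9, Spp1 and Cst7 belong to the program that microglia turn on in diseased brain tissue, often called disease-associated microglia (DAM). They were taken by gene name from a table of 55862 genes, each name matched 1 row, and all 10 are followed here across 4 groups of mouse cells. The 10 were chosen by name with their FPKM in these samples, and the differences of FPKM between the groups, already known, so their levels and fold changes are a description and carry no p value.

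Total RNA of 12 samples was sequenced, 3 in each of 4 groups, all from brain cells of mice labelled C57BL/6 (C57BL/6J in the methods for both NPC groups), to ask how far astrocytes kept as spheres come to resemble neural precursor cells. ASTs were primary astrocytes from the cerebral cortex of newborn mice, grown as a monolayer with serum after the meninges had been taken off, passaged once cells that held on loosely had been discarded, and sampled on day 0. A-iSCs were the same kind of astrocytes after 5 days as floating spheres on agarose, with no gene or factor added. P56-NPCs were suspensions of dissociated subependymal zone from adult mice of postnatal day 56, and P0-NPCs were suspensions of newborn hippocampus (postnatal day 0). Beyond that step the methods name no sorting for any group, so all 4 kinds of sample may be mixed populations, and NPC is the authors' name for the tissue suspensions. The paper calls the ASTs pure from staining for GFAP and none for Sox2, Sox10, Tuj1 and Map2, and reports no microglia stain. The methods speak in general of 3 independent experiments but do not tie the sequenced samples of a group to separate animals or cultures, so their spread may be technical. In bulk RNA of this kind, fewer cells of a type and less RNA per cell cannot be told apart.

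Microglia are the resident macrophages of the brain and the main cells there in which most of these genes are known. In the healthy brain they carry a homeostatic set of genes such as P2ry12 and Tmem119, and around plaques, in demyelination and in ageing that set falls while lipid-handling, lysosomal and phagocytic genes rise. The receptor Trem2, working through its adaptor Tyrobp, is needed for the full switch. Several of the 10 genes are not private to microglia. Apoe is a major astrocyte product, Cd9 and Axl are widespread, and Spp1, Gpnmb and Lpl are also made by other cells.

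The sequences around the start sites of 5 of the genes are shown because these 5 had at most 21.1 FPKM on average in either brain suspension and were higher in A-iSCs than in every other group. Each line runs 5′ to 3′ on the strand of the gene, from 130 bases before the start site to 20 bases into the transcript, from RefSeq on GRCm38.p6. Capitals mark matches on either strand to GAGGAA, the core bound by the myeloid factor PU.1, or to TGANTCA, the site of AP-1 factors.
Trem2 (chr17:48346271-48346420, + strand): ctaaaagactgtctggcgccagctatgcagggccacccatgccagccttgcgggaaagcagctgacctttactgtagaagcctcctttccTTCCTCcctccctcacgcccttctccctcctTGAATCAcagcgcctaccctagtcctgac
Clec7a (chr6:129472760-129472909, - strand): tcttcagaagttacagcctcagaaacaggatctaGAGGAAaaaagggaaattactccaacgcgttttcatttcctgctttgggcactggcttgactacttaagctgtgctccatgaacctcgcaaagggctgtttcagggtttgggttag
Cst7 (chr2:150570285-150570434, + strand): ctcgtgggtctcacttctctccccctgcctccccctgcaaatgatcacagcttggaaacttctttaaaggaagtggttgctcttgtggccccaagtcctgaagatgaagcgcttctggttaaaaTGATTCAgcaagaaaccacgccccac
Gpnmb (chr6:49036388-49036537, + strand): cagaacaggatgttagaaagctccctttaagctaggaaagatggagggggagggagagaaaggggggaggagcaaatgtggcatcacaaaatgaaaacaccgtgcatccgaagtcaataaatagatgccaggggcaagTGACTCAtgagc
Spp1 (chr5:104434981-104435130, + strand): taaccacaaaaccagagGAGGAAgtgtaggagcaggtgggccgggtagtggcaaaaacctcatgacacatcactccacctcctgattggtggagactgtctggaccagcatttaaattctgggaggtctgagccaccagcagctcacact
RefSeq gave a window for 8 of the 10 genes, all but Tyrobp and Lpl, from 250 bases before to 50 bases after the start. GAGGAA was found in 5 of these 8 windows (Trem2, Clec7a, Axl, Apoe and Spp1) and in 28.3% of 32851 promoter windows of the same length. TGANTCA was found in 3 of the 8 (Trem2, Cst7 and Gpnmb) and in 7.81% of all windows, and the E-box CACGTG, which MITF and TFE factors bind, in 0 of the 8 and in 7.15%. These are matches of letters and not measured binding, and the same letters can belong to other motifs.

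The libraries held 17077780 to 24452419 fragments counted on genes, and the values were deposited as FPKM, fragments per length of gene in kilobases and per size of library. For a gene of 1 kilobase, 3 fragments corresponded to 0.103 to 0.187 FPKM, a floor that covers counting error only. AST replicate 2 and A-iSC replicate 3 stood apart from the rest of their groups in a way that followed gene length. With the genes in 3 equal classes by length, the median log2 deviation of AST replicate 2 from the rest of its group was 0.24 in the class of the shortest genes and -0.15 in that of the longest, while for A-iSC replicate 3 these medians were -0.22 and 0.19. AST replicate 2 was the highest AST sample for 6 of the 10 genes and A-iSC replicate 3 the lowest A-iSC sample for 7, and values without them are given beside the results they change most. Markers of other cells differed between the groups as well. Over 8 neuron markers the summed level was 855 to 1033 FPKM in P0-NPCs and 227 to 282 FPKM in P56-NPCs. It was 88.8 to 125 FPKM in ASTs and 50.7 to 66.5 FPKM in A-iSCs. Over 8 endothelial markers it was 74.7 to 78.0 FPKM in P0-NPCs and at most 6.09 FPKM in any other sample. Over 8 markers of monocytes and neutrophils the summed level was at most 0.889 FPKM in every AST and A-iSC sample, with 3 of the 8 at 0 throughout either group, against 6.94 to 12.9 FPKM in P56-NPCs and 7.05 to 20.2 FPKM in P0-NPCs, whereas over 8 markers of the oligodendrocyte lineage it was 8536 to 9721 FPKM in P56-NPCs, 27.7 to 33.7 FPKM in P0-NPCs, 21.1 to 22.9 FPKM in ASTs and 73.2 to 93.4 FPKM in A-iSCs. Between A-iSCs and ASTs, 5 of the 6 oligodendrocyte lineage markers tested were higher and 1 lower (median log2 fold change 1.92), and of 7 ependymal markers tested 5 were higher and 0 lower (median 1.54), at sums of 84.6 to 97.2 FPKM against 51.3 to 65.6 FPKM. Mitochondrial genes took 16.5 to 17.6% of the fragments in P56-NPCs and 2.94 to 7.03% in the other 9 samples. All 8 proliferation markers were lower in A-iSCs than in ASTs (median log2 fold change -2.01), at a summed level of 74.2 to 78.5 FPKM against 200.2 to 226 FPKM. The part of any of these in the levels of the 10 genes was not tested.

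**Figure D1:**
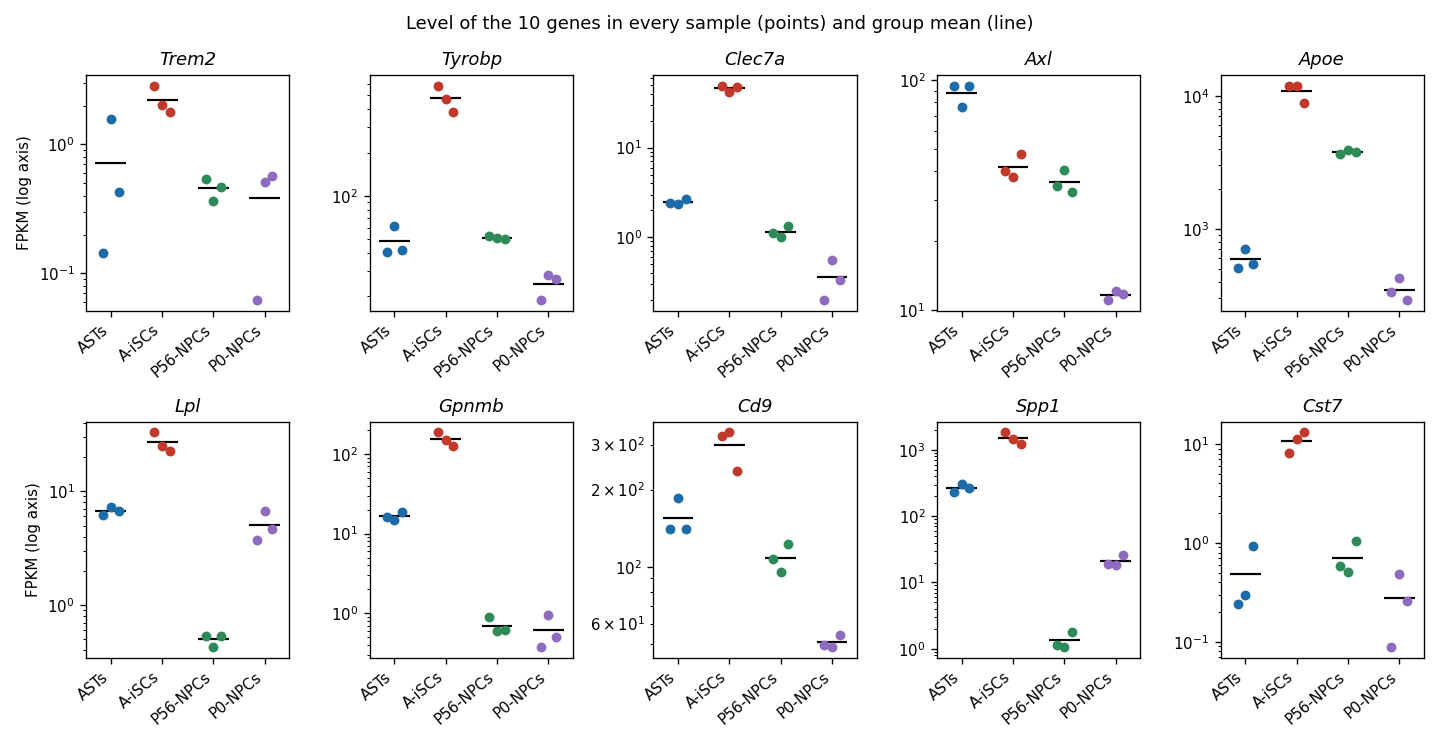
FPKM of the 10 genes on log axes, 1 panel per gene, with 3 points for the samples of each group and a line at the group mean. A-iSCs hold the highest mean for 9 of the 10 genes, and only Axl is highest in ASTs.

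The receptors were considered first. Tyrobp (ENSMUSG00000030579, chromosome 7 from 30413760 to 30417585) encodes DAP12, the ITAM adaptor through which TREM2 signals. Its level was 40.7, 62.0 and 42.1 FPKM in the AST samples and 584, 472 and 385 FPKM in the A-iSC samples. In the brain suspensions it was 52.3, 50.6 and 49.8 FPKM in P56-NPCs and 18.8, 28.3 and 26.2 FPKM in P0-NPCs. All A-iSC samples lay far above the rest, ASTs and P56-NPCs overlapped, and P0-NPCs lay below both. The A-iSC mean, 480 ± 99.6 FPKM (SD, n = 3), was 9.96 times that of ASTs, a log2 fold change of 3.30 with a standard error (SE) of 0.22. All log2 fold changes are on the scale of log2(FPKM + 1), which understates the change of low genes, whereas folds in plain numbers are ratios of mean FPKM.

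Trem2 (ENSMUSG00000023992, chromosome 17 from 48346401 to 48354147), the lipid-sensing receptor itself, was low throughout. It had 0.145, 1.57 and 0.425 FPKM in the AST samples against 2.86, 2.01 and 1.79 FPKM in the A-iSC samples. The values were 0.536, 0.365 and 0.466 FPKM in P56-NPCs and 0.0619, 0.514 and 0.573 FPKM in P0-NPCs. The A-iSC samples were above every other sample, though AST replicate 2 came close to the lowest of them, and the 3 other groups overlapped. The counts behind these levels were 12 to 157 fragments for an AST and 236 to 285 for an A-iSC sample. The table divides Trem2 by 4946 bases because its annotation includes a transcript model that retains an intron, and with the 1088 bases of the longest coding transcript the group means would be 3.23 FPKM in ASTs, 10.1 in A-iSCs, 2.07 in P56-NPCs and 1.74 in P0-NPCs. The same choice of length would multiply values of Lpl by 2.55, of Gpnmb by 1.76, of Cd9 by 1.66 and of Apoe by 1.52. It leaves ratios of mean FPKM between groups as they are, but not the log2 fold changes. The fold of Trem2 between A-iSCs and ASTs was 3.12 (log2 0.98, SE 0.30), and without AST replicate 2 it was 7.79 (log2 1.32, SE 0.19). The call of this difference was lost without AST replicate 1 or 3 and without A-iSC replicate 1 or 2, at log2 fold changes of 0.74 to 1.03.

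Clec7a (ENSMUSG00000079293, chromosome 6 from 129461591 to 129472779) encodes Dectin-1, a receptor for beta-glucans that signals through SYK, and the table lists it as a polymorphic pseudogene, the annotation's class for a gene that is intact in some strains only. The AST samples had 2.40, 2.37 and 2.69 FPKM and the A-iSC samples 49.2, 41.6 and 47.3 FPKM. P56-NPCs had 1.11, 1.02 and 1.33 FPKM and P0-NPCs 0.199, 0.560 and 0.330 FPKM. The 4 groups did not overlap anywhere, in the order A-iSCs, ASTs, P56-NPCs and P0-NPCs. The level in A-iSCs was 18.5 times that in ASTs (log2 3.75, SE 0.11), 39.9 times that in P56-NPCs and 127 times that in P0-NPCs.

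Axl (ENSMUSG00000002602, chromosome 7 from 25757273 to 25788705), a TAM receptor that binds GAS6 on dying cells, went the other way. It had 94.6, 76.0 and 94.1 FPKM in the AST samples and 40.3, 37.9 and 47.6 FPKM in the A-iSC samples. P56-NPCs had 34.7, 40.7 and 32.7 FPKM, and P0-NPCs 10.99, 12.05 and 11.6 FPKM. ASTs were above all other samples, A-iSCs and P56-NPCs overlapped, and P0-NPCs were lowest. The A-iSC mean was 0.475 times the AST mean (log2 -1.05, SE 0.15).

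The lipid-handling genes followed. Apoe (ENSMUSG00000002985, chromosome 7 from 19696109 to 19699188) encodes apolipoprotein E, the main carrier of cholesterol between brain cells and a ligand of TREM2. The AST samples had 510, 711 and 547 FPKM and the A-iSC samples 11922, 11939 and 8835 FPKM. P56-NPCs had 3664, 3892 and 3777 FPKM and P0-NPCs 333, 426 and 291 FPKM. The groups did not overlap, and the order was A-iSCs, P56-NPCs, ASTs and P0-NPCs. Apoe was the nuclear gene with the highest FPKM in every A-iSC sample and took 2.13 to 2.93% of their fragments, against 0.107 to 0.143% in ASTs, where it ranked 39 to 48 among nuclear genes. In P56-NPCs it ranked 3 in every sample. The A-iSC mean was 18.5 times the AST mean (log2 4.21, SE 0.25) and 2.89 times the P56-NPC mean. Apoe is made by astrocytes as well as microglia, and from ASTs to A-iSCs both kinds of marker rose with it. Of 8 astrocyte markers, 7 rose from ASTs to A-iSCs and 0 fell, and all 8 were higher in P56-NPCs than in ASTs. In other comparisons they followed Apoe only in part. In A-iSCs against P56-NPCs, where Apoe was higher, 2 were higher and 5 lower (median log2 fold change -1.59). In P0-NPCs against ASTs, where Apoe was lower, 4 were higher and 3 lower. In A-iSCs against P0-NPCs, where Apoe was higher, 6 were higher and 0 lower (median 1.96). All 8 markers, and Apoe, were higher in P56-NPCs than in P0-NPCs without overlap. Their summed level was 147 to 167 FPKM in ASTs, 1213 to 2467 FPKM in A-iSCs, 2450 to 2681 FPKM in P56-NPCs and 246 to 311 FPKM in P0-NPCs. The share of each cell type in the Apoe level was not tested.

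Lpl (ENSMUSG00000015568, chromosome 8 from 68880491 to 68907448), the lipase that releases fatty acids from lipoproteins, had 6.15, 7.31 and 6.71 FPKM in ASTs and 32.9, 25.1 and 22.6 FPKM in A-iSCs. It had 0.539, 0.428 and 0.539 FPKM in P56-NPCs and 3.71, 6.66 and 4.67 FPKM in P0-NPCs. A-iSCs were highest without overlap, ASTs and P0-NPCs overlapped, and P56-NPCs were lowest. The A-iSC mean was 3.996 times that of ASTs (log2 1.84, SE 0.16) and 53.5 times that of P56-NPCs.

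Gpnmb and Cd9 encode membrane proteins. Gpnmb (ENSMUSG00000029816, chromosome 6 from 49036546 to 49070929), a lysosomal glycoprotein of phagocytes and pigment cells, had 16.2, 14.7 and 18.6 FPKM in ASTs and 187, 151 and 127 FPKM in A-iSCs. By the length in the table no sample of the brain suspensions reached 1 FPKM, with 0.884, 0.603 and 0.615 FPKM in P56-NPCs and 0.376, 0.949 and 0.502 FPKM in P0-NPCs (group means of 1.23 and 1.07 FPKM by the coding length). The cultured groups were thus above both suspensions, which overlapped each other. The A-iSC mean was 9.40 times the AST mean (log2 3.15, SE 0.17), 221 times the P56-NPC mean and 255 times the P0-NPC mean. Cd9 (ENSMUSG00000030342, chromosome 6 from 125460266 to 125494791), a tetraspanin found on many cells including astrocytes, varied much less. It had 141, 185 and 141 FPKM in ASTs and 323, 335 and 237 FPKM in A-iSCs. P56-NPCs had 107, 95.2 and 122 FPKM and P0-NPCs 49.3, 48.6 and 54.3 FPKM. No groups overlapped for Cd9, and the A-iSC mean was 1.92 times that of ASTs (log2 0.93, SE 0.20).

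The last pair comprised a secreted protein and a protease inhibitor. Spp1 (ENSMUSG00000029304, chromosome 5 from 104435118 to 104441050) encodes osteopontin, a secreted ligand of integrins and CD44. The AST samples had 235, 307 and 268 FPKM and the A-iSC samples 1847, 1478 and 1242 FPKM. P56-NPCs had 1.15, 1.06 and 1.81 FPKM and P0-NPCs 19.0, 18.3 and 26.1 FPKM. The groups did not overlap, and of the 10 genes Spp1 had the widest range across them. It ranked 9 to 11 among nuclear genes in A-iSCs. The A-iSC mean was 5.63 times the AST mean (log2 2.48, SE 0.21) and 1137 times the P56-NPC mean, while the AST mean was itself 202 times the P56-NPC mean. Cst7 (ENSMUSG00000068129, chromosome 2 from 150570415 to 150578944) encodes cystatin F, an inhibitor of lysosomal cathepsins made by immune cells. The AST samples had 0.242, 0.300 and 0.928 FPKM and the A-iSC samples 8.05, 11.3 and 13.1 FPKM. P56-NPCs had 0.584, 0.505 and 1.05 FPKM and P0-NPCs 0.0887, 0.488 and 0.258 FPKM. A-iSCs were far above the rest, which was counted on 2 to 17 fragments per sample, and the 3 other groups overlapped with their neighbours in the order. The A-iSC mean was 22.1 times the AST mean (log2 2.99, SE 0.23), and 39.9 times without AST replicate 3 (log2 3.19).

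Counted over the comparison of A-iSCs with ASTs, 9 of the 10 genes were called higher and 1, Axl, lower. A gene was called where its p from limma, adjusted over all genes tested by the Benjamini-Hochberg method, was under 0.05, and a gene was tested where its mean was at least 1 FPKM in either group. Of all 14087 genes tested 54.8% were called, 25.2% higher and 29.6% lower. The choice of the 10 genes drew on this comparison, so nothing is read from their count. Trem2 and Cst7 passed the filter only through A-iSCs, where they were high. The median log2 fold change of the 10 was 2.74, beside -0.06 over all genes tested. Between A-iSCs and P56-NPCs 9 of the 10 were called higher and Axl was not called, beside 61.0% of all genes called, 30.1% higher and 30.9% lower. Of the 9, Trem2, Lpl, Gpnmb and Cst7 passed the filter only through A-iSCs, which fixed their direction, and the call of Apoe was lost with no filter (log2 1.51). Between A-iSCs and P0-NPCs all 10 were called higher, beside 65.1% called, 31.5% higher and 33.6% lower. Trem2, Clec7a, Gpnmb and Cst7 passed only through A-iSCs there. Between P56-NPCs and ASTs, 8 of the genes passed the filter, of which 1 (Apoe) was called higher and 6 lower, beside 78.9% called, 39.1% higher and 39.8% lower. Lpl and Gpnmb passed only through ASTs, and Cd9 lost its call without P56-NPC replicate 2 (log2 -0.43). Between P0-NPCs and ASTs, 8 passed and 7 were called lower, beside 79.0% called, 38.1% higher and 40.9% lower. Clec7a and Gpnmb passed only through ASTs, and Apoe lost its call with scaling by library size (log2 -0.46). Trem2 and Cst7 were the genes that did not pass the filter in the last pair of comparisons. The filter used the lengths in the table. By the coding length every group mean of Trem2, Lpl and Gpnmb would be above 1 FPKM. The comparisons share their AST or A-iSC samples and are not independent of each other.

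How many genes were called higher or lower over the whole table depended on the scaling between samples, which bears on every share above. When only library size was used for scaling, A-iSCs had 4563 higher and 2989 lower genes than ASTs, in place of 3550 and 4165, and the median over genes became 0.13 on the log2 scale. Upper-quartile scaling moved them the other way, to 3026 higher and 4954 lower (median -0.17). With library size alone, the counts against P56-NPCs moved from 4532 higher and 4643 lower to 8329 and 2857, with a median of 0.49. They moved from 5924 and 6032 to 4569 and 7559 between P56-NPCs and ASTs (median -0.34), and from 5713 and 6146 to 7106 and 4860 between P0-NPCs and ASTs (median 0.21). Leaving out samples changed the totals as well. Without AST replicate 2 and A-iSC replicate 3, 4793 genes of 14179 tested were higher and 5551 lower in A-iSCs than in ASTs. Without A-iSC replicate 3, 5675 were higher and 5551 lower in A-iSCs than in P56-NPCs, and 5636 and 5870 against P0-NPCs. No called fold change of the 10 genes changed sign under scaling by library size or by the upper quartile.

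Other microglia and macrophage genes were examined next, from lists of known roles that were drawn up with earlier results of these data in view, so that their p values are no independent support. Each count of called genes is to be read beside the share over all genes in that comparison, given above. Of 18 genes shared by microglia and macrophages, all 18 were called higher in A-iSCs relative to ASTs, with a median log2 fold change of 3.14 beside the -0.06 of all genes. Fcgr3, an Fc receptor, rose from 8.57 to 137 FPKM (log2 3.82, SE 0.22, adjusted p = 1.51e-05 from limma). C1qb, a chain of complement C1q, rose from 69.8 to 965 FPKM (log2 3.75, adjusted p = 1.13e-05 from limma), and the lysosomal protease Ctss from 75.2 to 978 FPKM (log2 3.69, adjusted p = 5.07e-06). C1qa, Ctss and C1qb were also the most abundant genes of the list, with 343, 329 and 318 FPKM on average over the 12 samples.

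The homeostatic microglia genes rose in spheres as well. Of 16 genes on that list 14 were tested between A-iSCs and ASTs, 12 were higher, 0 were lower, and the median log2 fold change was 2.50. Fcrls, an Fc receptor-like protein of resident microglia, rose from 24.3 to 265 FPKM (log2 3.39, adjusted p = 5.56e-06 from limma). Csf1r, the receptor on which microglia depend for survival, rose from 7.61 to 87.5 FPKM (log2 3.35, adjusted p = 6.56e-06), and the fractalkine receptor Cx3cr1 from 7.17 to 61.1 FPKM (log2 2.92, adjusted p = 5.9e-06). Fcrls and Csf1r were among the 3 most abundant genes of this list. The transcription factor Sall1 (log2 0.44) and the adhesion receptor Adgrg1 (0.20) did not pass the test.

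P56-NPCs differed from A-iSCs in which microglia genes were high. Compared with ASTs, all 16 homeostatic genes were higher in P56-NPCs, with a median log2 fold change of 2.47, and 16 of the 18 shared genes were higher with a median of 1.14. The ADP receptor P2ry12 had 0.670 FPKM in ASTs and 60.2 FPKM in P56-NPCs (log2 5.20, adjusted p = 1.22e-08 from limma). Siglech, a lectin of resident microglia, had 0 to 1 fragment in an AST sample and 0 to 5 in an A-iSC sample but 980 to 1091 in a P56-NPC sample, or 18.5 FPKM (log2 4.27 over ASTs, adjusted p = 1.55e-08 from limma). The fructose transporter Slc2a5 had likewise 1 to 5, 2 to 7 and 286 to 309 fragments in samples of these groups. Set directly against P56-NPCs, A-iSCs were higher for all 18 shared genes (median log2 1.93), led by the Fc receptor chain Fcer1g (9.65-fold, log2 3.13, adjusted p = 0.000205 from limma) and the myeloid factor Spi1, which encodes PU.1 (6.88-fold, log2 2.51, adjusted p = 0.000221). Of the 16 homeostatic genes, however, 5 were higher in A-iSCs and 8 lower (median -0.47), beside 30.1% and 30.9% of all genes. On the log2 scale Fcrls (5.10-fold) was the most raised, and Siglech (log2 -4.23, adjusted p = 1.59e-07 from limma) and P2ry12 (log2 -2.91, adjusted p = 8.61e-06) the most lowered. By ratio of means Slc2a5 was lowered more than P2ry12 (104 against 8.24 times), on 2 to 7 fragments in an A-iSC sample. With scaling by library size, 8 homeostatic genes were higher in A-iSCs in place of 5. Csf1r itself did not pass the test between the groups, at 87.5 ± 15.3 FPKM in A-iSCs and 76.2 ± 1.72 FPKM in P56-NPCs (SD, n = 3).

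**Figure D2:**
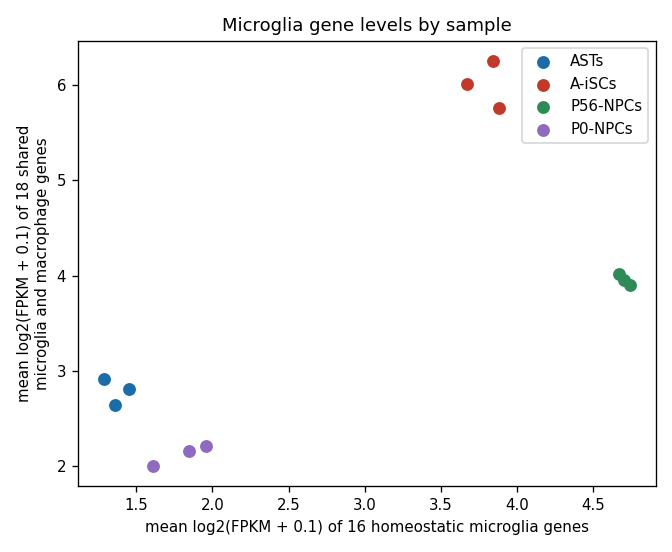
Mean log2(FPKM + 0.1) of 16 homeostatic microglia genes (x axis) and of 18 genes shared by microglia and macrophages (y axis), 1 point per sample. The A-iSC samples are highest on the y axis (5.76 to 6.25) and the P56-NPC samples on the x axis (4.67 to 4.74).

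P0-NPCs had the lowest level of the shared genes. Of the 16 shared genes tested against ASTs, 1 was higher and 9 were lower, with a median log2 fold change of -0.44. The exception was the actin-binding protein Coro1a (log2 1.33, adjusted p = 3.5e-05 from limma), and Ctss (log2 -1.41, adjusted p = 3.35e-05) was among the most lowered. Of 13 homeostatic genes tested, 6 were higher and 5 lower, beside 38.1% and 40.9% of all genes. P2ry12 (log2 1.68) and Siglech (1.52) were at one end and Sall1 (-0.75) near the other. A-iSCs exceeded P0-NPCs for all 18 shared genes (median 3.30), with Ctss (log2 5.09) and C1qa (4.58) among the largest log2 fold changes, and for 13 of 15 homeostatic genes, with Fcrls (3.98) and Cx3cr1 (3.55) among the largest. Siglech was again lower in A-iSCs (log2 -1.47, adjusted p = 1.89e-05 from limma).

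Against this background the 10 genes were re-expressed relative to the microglia genes of the same sample, as log2(FPKM + 0.1) minus the mean of the reference list. The mean of the 18 shared genes was 2.65 to 2.92 in the AST samples, 5.76 to 6.25 in the A-iSC samples, 3.90 to 4.02 in the P56-NPC samples and 2.002 to 2.21 in the P0-NPC samples. Relative to it, 2 of the 10 were above in A-iSCs with no overlap with ASTs, beside 1.16% of all genes tested, and these were Clec7a and Apoe, by 0.94 and 0.996 on average. Tyrobp (0.11), Gpnmb (-0.00031) and Cst7 (1.15) overlapped between the groups, though without AST replicate 2 Tyrobp (0.24) lay above and Gpnmb (-0.14) below, and Cst7 lay above without AST replicate 3 (1.63) or A-iSC replicate 1 (1.47). The other 5 were below, beside 94.3% of all genes, by log2 differences of -4.28 for Axl, -2.28 for Cd9, -1.29 for Trem2, -1.25 for Lpl and -0.73 for Spp1, and for Trem2 the nearest samples were almost level (-4.69 in A-iSCs and -4.68 in ASTs). Without AST replicate 2 the difference of Trem2 was -0.61. With the homeostatic genes as reference, 5 of the 10 were above (Tyrobp, Clec7a, Apoe, Gpnmb and Cst7) beside 2.67% of all genes, 3 were below (Axl, Lpl and Cd9) beside 90.6%, and 2 overlapped. With Csf1r alone, 2 were above (Clec7a and Apoe) beside 0.625% of all genes, 6 were below beside 95.5%, and 2 (Tyrobp and Cst7) overlapped. Tyrobp lay below without AST replicate 3 (-0.34), and Cst7 above without AST replicate 3 (1.28) or A-iSC replicate 1 (1.196). Gpnmb was thus above its AST level by the homeostatic genes but below it by Csf1r, at 0.777 to 0.851 in A-iSCs against 1.02 to 1.17 in ASTs. Because the choice of the 10 drew on this comparison, nothing is read from these counts. Relative to all 3 references, Clec7a and Apoe stood above their AST level in A-iSCs. Axl, Cd9 and Lpl stood below it, as 90.6 to 95.5% of all genes did, depending on the reference.

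A-iSCs and P56-NPCs were compared by the same measure. Relative to the homeostatic genes, all 10 were above in A-iSCs, beside 66.7% of all genes above and 16.6% below, from 1.12 for Axl to 10.97 for Spp1, with 8.51 for Gpnmb, 6.38 for Lpl and 6.11 for Clec7a. Relative to the shared genes, 6 of the 10 were above, beside 3.55% of all genes (Spp1 by 8.02, Gpnmb by 5.55, Lpl by 3.43, Clec7a by 3.16, Cst7 by 1.73 and Tyrobp by 1.17). Axl (-1.83), Cd9 (-0.60) and Apoe (-0.53) were below, beside 90.8% of all genes, and Trem2 overlapped. Relative to Csf1r alone, 9 were above and Axl overlapped, beside 24.8% of all genes above and 36.1% below. This comparison too was among those known when the 10 were chosen. P56-NPCs were below ASTs for all 10 genes relative to the homeostatic genes, beside 87.7% of all genes below and 6.90% above. Relative to the shared genes they were below for 7 (Tyrobp, Clec7a, Axl, Lpl, Gpnmb, Cd9 and Spp1), beside 67.7%, and above for Apoe alone, beside 20.2%, while Trem2 and Cst7 overlapped. Trem2 lay below without P56-NPC replicate 1 (-1.39) or AST replicate 1 (-1.85), and Cst7 without P56-NPC replicate 3 (-0.83). The share of other cell types in these levels was not tested.

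**Figure D3:**
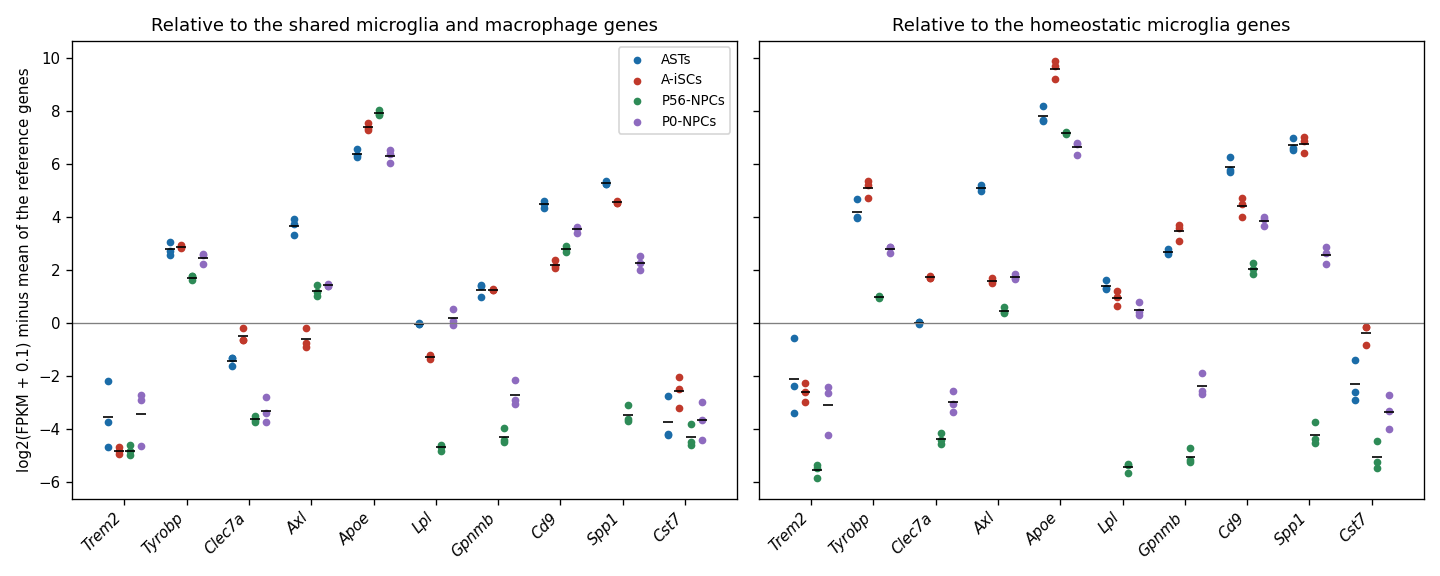
log2(FPKM + 0.1) of each of the 10 genes minus the mean of the shared microglia and macrophage genes (left) or of the homeostatic microglia genes (right) in the same sample, with points for samples and lines for group means. On the right every A-iSC point lies above every P56-NPC point of the same gene, by 1.12 for Axl to 10.97 for Spp1 between the means. The same holds for 66.7% of all genes tested.

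A further 28 genes of the DAM program, beyond the 10, were mixed in direction. Between A-iSCs and ASTs 27 were tested, 19 were higher and 3 lower, with a median log2 fold change of 1.60. Cd52, a surface glycopeptide of leukocytes, rose from 8.45 to 101 FPKM (log2 3.41, SE 0.27, adjusted p = 5.28e-05 from limma). The chemokine Ccl6 went from 0.345 to 12.1 FPKM (log2 3.28, adjusted p = 6.91e-06) and lysozyme, Lyz2, from 321 to 2957 FPKM (log2 3.18, adjusted p = 2.44e-05 from limma), though Lyz2 has a near-identical copy, Lyz1, with which reads can be shared. Csf1, the growth factor of microglia and macrophages, fell from 275 ± 2.11 to 20.6 ± 3.04 FPKM (SD, n = 3; log2 -3.68, adjusted p = 4.36e-06 from limma). The metalloproteinase inhibitor Timp2 fell from 382 to 128 FPKM (log2 -1.61, adjusted p = 0.00105) and Ch25h, which makes 25-hydroxycholesterol, from 4.79 to 2.51 FPKM (log2 -0.75, adjusted p = 0.0175). Without AST replicate 2 the call of Ch25h was lost (log2 -0.65, adjusted p = 0.062 from limma). Itgax, the integrin that often marks DAM, was below the filter, at 0.758 FPKM on average in A-iSCs and 0.061 FPKM in ASTs.

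In P56-NPCs these genes were on the whole below ASTs, with 6 higher and 17 lower of 26 tested (median log2 -0.80). Lgals3, the lectin galectin-3, had 224 FPKM in ASTs and 5.35 FPKM in P56-NPCs (log2 -5.26, adjusted p = 1.35e-05 from limma), and Csf1 was lower as well (log2 -4.66, adjusted p = 9.9e-09). Ccl6 (log2 2.31) and the ferritin chain Fth1 (2.23) had the largest positive log2 fold changes. In P0-NPCs 23 of 26 were lower than in ASTs (median -1.85), with Lgals3 (log2 -6.01) and Csf1 (-5.75) the furthest down and the lipid-binding protein Fabp5 (1.56) and Ccl6 (1.16) the furthest up. A-iSCs were higher than P56-NPCs for 21 and lower for 2 of 27, with Lyz2 (log2 6.99) and Lgals3 (5.33) at the top of the log2 fold changes and the protease inhibitor Serpine2 (-1.39) and Fth1 (-1.35) below. They were higher than P0-NPCs for 25 of 27 and lower for 0, again with Lyz2 (log2 7.66) and Lgals3 (6.08) at the top. For Lgals3 the high level was a property of both cultured groups, since A-iSCs and ASTs (240 and 224 FPKM) did not differ by the test (log2 0.07).

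**Figure D4:**
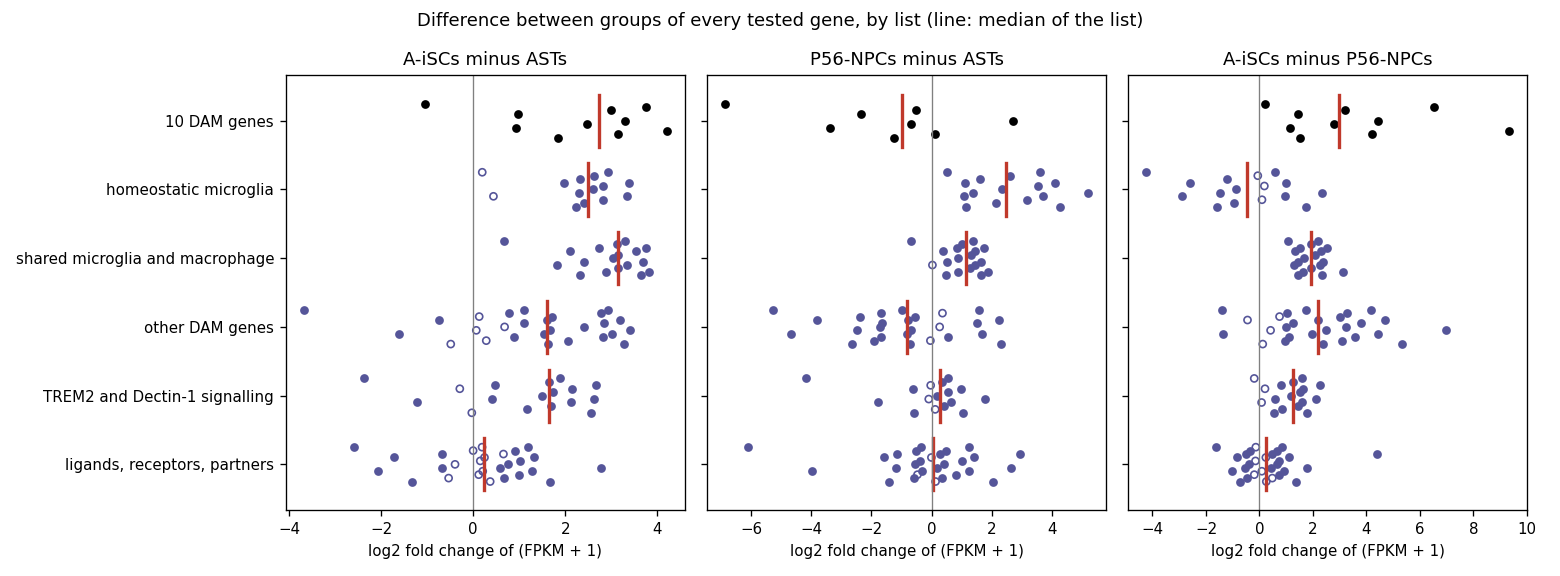
log2 fold change of (FPKM + 1) of every tested gene in the 10 DAM genes (black, no test shown) and in 5 related lists (blue, filled where called by limma, open where not), with a red line at the median of each list. From ASTs to A-iSCs the homeostatic, shared and other DAM lists all sit to the right, with medians of 2.50, 3.14 and 1.60, while from ASTs to P56-NPCs the other DAM list sits to the left (-0.80).

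The signalling genes behind TREM2 and Dectin-1 were next. Of 18 genes 17 were tested between A-iSCs and ASTs, 13 were higher and 2 lower, with a median log2 fold change of 1.65. The exchange factor Vav1 rose from 2.15 to 19.1 FPKM (log2 2.67, adjusted p = 1.24e-05 from limma). The phosphatases Ptpn6 (7.99-fold, log2 2.63, adjusted p = 6.99e-05 from limma) and Inpp5d (10.2-fold, log2 2.56, adjusted p = 6.55e-06), which restrain ITAM signals, rose as well. The adaptor Dok1 fell from 66.1 to 11.9 FPKM (log2 -2.38, adjusted p = 4.58e-05) and Bcl10, which links CARD9 to NF-kappaB, from 25.3 to 10.3 FPKM (log2 -1.23, adjusted p = 5.28e-05 from limma). Without AST replicate 2 and A-iSC replicate 3, 4 of these genes were called lower in place of 2.

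The ligands, receptors and partners of the 10 genes showed no common direction between A-iSCs and ASTs. Of 27 tested, 11 were higher and 6 lower (median log2 fold change 0.24), beside 25.2% and 29.6% of all genes. The cholesterol exporters Abcg1 (0.287 to 7.82 FPKM, log2 2.77, adjusted p = 5.14e-06 from limma) and Abca1 (19.4 to 53.9 FPKM, log2 1.32, adjusted p = 0.022) were higher beside Apoe, and so was Angptl4, an inhibitor of LPL (8.31-fold, log2 1.68, adjusted p = 5.53e-05). Abca1 lost its call without AST replicate 2 (log2 1.09, adjusted p = 0.0767 from limma) and with no filter (adjusted p = 0.057). Of the 5 receptor genes of osteopontin, the product of Spp1, on the list, 3 fell, Itgb5 was not called (log2 0.24) and Itgb3 was below the filter. Those that fell were the integrin chain Itgb1 from 663 to 110 FPKM (log2 -2.59, adjusted p = 6.24e-05 from limma), Cd44 from 105 to 31.3 FPKM (log2 -1.71, adjusted p = 3.23e-05) and Itgav (log2 -1.34).

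Markers of other cells of the macrophage kind moved with the 10 genes only in part. Of 8 border macrophage markers 4 were tested between A-iSCs and ASTs, of which 3 were higher and 1 lower, and their summed level was 10.7 to 14.0 FPKM in ASTs, 72.8 to 101 FPKM in A-iSCs, 6.56 to 12.1 FPKM in P56-NPCs and 46.1 to 54.4 FPKM in P0-NPCs. Ms4a7 (2.26 to 27.5 FPKM), Pf4 (3.89 to 28.4 FPKM) and Stab1 (3.17 to 25.03 FPKM) were higher in A-iSCs. Mrc1, the mannose receptor, was below the filter and also higher in A-iSCs without overlap (0.157 and 0.787 FPKM), whereas Cd163 and Lyve1 were at or below 0.0314 FPKM on average in both cultured groups. P0-NPCs had 1.65 FPKM of Cd163 and 8.13 FPKM of Lyve1. The summed level of 8 markers of fibroblasts and mural cells was 1884 to 2269 FPKM in ASTs, 33.8 to 67.0 FPKM in A-iSCs, 16.3 to 31.7 FPKM in P56-NPCs and 167 to 171 FPKM in P0-NPCs. The AST sum came mostly from Acta2 (1848 FPKM on average) and Col1a1 (158 FPKM), and the 6 other markers were highest in P0-NPCs. Between A-iSCs and ASTs 5 of the 8 were tested and all 5 were lower, while of the 3 below the filter Rgs5 was higher in A-iSCs without overlap (0.699 against 0.311 FPKM). The part of any of these cells in the levels of the 10 genes was not tested.

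Profiles across the 12 samples were compared with those of 13651 protein-coding genes, by root mean square differences on the log2(FPKM + 1) scale after each gene had been centred on its own mean. For Tyrobp the nearest were Fcer1g (0.22), Cd48 (0.22) and Bcl2a1b (0.24). For Clec7a they were Ms4a6d (0.29), C3ar1 (0.31) and Fcgr4 (0.32), and for Cst7 Adgre1 (0.28), Cyp4f18 (0.28) and Glycam1 (0.30). For Gpnmb they were Lyz2 (0.51), Ccl5 (0.65) and Wfdc17 (0.74). Bcl2a1b belongs to a family of close copies, so its counts are uncertain.

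The remaining 6 genes were compared in the same way. Axl lay closest to Itgav (0.14), an integrin chain, Pea15a (0.17) and Slc33a1 (0.21), and Cd9 to Dhrs3 (0.17), Slc31a2 (0.18) and Tcn2 (0.18). Apoe lay closest to Ctss (0.43), Pvalb (0.45) and C4b (0.45), and Lpl to Fxyd5 (0.46), Ssc5d (0.49) and S1pr3 (0.52). For Trem2 they were Blvra (0.24), Trappc6a (0.25) and Fpr1 (0.25), at a profile whose own root mean square was only 0.57. The nearest gene to Spp1, Lyz2, was 1.49 away, at a profile of Spp1 whose own root mean square was 3.55.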

How the data were processed

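The authors deposited 1 table of FPKM with gene lengths and GRCm38 positions. The submitters' processing notes list Bowtie 0.12.2 and mm8 with no role, so the aligner behind the table is not settled here. Values times gene length were whole multiples of 1 step per sample in 99.8 to 100.0% of cases (within 0.01), so fragments could be recovered, and the steps show that the values already include a scaling between samples. Pairs of groups were fitted with limma 3.58.1 (R 4.3.3, lmFit, then eBayes with a trend) on log2(FPKM + 1), over genes with a mean of at least 1 FPKM in either group, and called at an adjusted p (Benjamini-Hochberg) below 0.05. DESeq2, which the paper names, was not run, and limma-voom on the recovered fragments was the alternative with counts. The steps were tested on simulated data. Python 3.11.15 with pandas 2.3.3 gave the other values.

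The 10 genes and the lists were chosen with earlier results of these data known. Named besides the 10 are each list's called genes with the 3 largest and 3 smallest fold changes (2 in comparisons other than A-iSCs with ASTs), the 3 most abundant homeostatic and shared genes and markers of other cells. A few genes that this rule names are not reported here. Slc2a5, Itgax, Itgav, Sall1, Adgrg1 and further values of Lgals3 and Csf1r were picked after being seen. Alternatives were other scalings, no filter, a pseudocount of 0.1, all 4 groups in a model, a replicate block, limma-voom on fragments, a log2 fold change beyond 1, other reference genes and samples left out in turn. Leaving out AST replicate 2 with A-iSC replicate 3, coding lengths, and folds of means and relative levels without each sample were added after the data were seen.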

Additional observations from a re-analysis of the deposited data

How the results depend on the processing

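Over 46 fold changes of the 10 genes, 608 alternative values were computed, of which 542 moved by less than the spread of the samples, 66 moved more and 0 called values changed sign. A call was lost in 8, of which 5 were of Trem2 between A-iSCs and ASTs (0.74 to 1.03, without 4 of the 6 samples in turn and with no filter). The others were Cd9 between P56-NPCs and ASTs without P56-NPC replicate 2 (-0.43), Apoe between P0-NPCs and ASTs with scaling by library size (-0.46) and Apoe between A-iSCs and P56-NPCs with no filter (1.51). The cause was not tested. Between ASTs and A-iSCs, residuals of samples with the same replicate number correlated at -0.41, 0.35 and 0.45. These values cannot show whether the numbers pair the samples, since AST replicate 2 and A-iSC replicate 3 deviated in opposite ways with gene length. With the replicate number as a block, 3694 genes were higher and 4250 lower in A-iSCs than in ASTs, the former including all 18 shared and 13 homeostatic genes.

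With a log2 fold change beyond 1 required as well, which lowers counts by construction, 6 partner genes in place of 11 were called higher in A-iSCs against ASTs. Against ASTs, 10 shared genes were then higher and 0 lower in P56-NPCs in place of 16 and 1, and 11 other DAM genes lower in place of 17. In P0-NPCs 3 homeostatic genes were higher and 0 lower in place of 6 and 5, and 3 shared genes lower in place of 9. Of the homeostatic genes 3 were then higher in A-iSCs than in P56-NPCs in place of 5, and 8 with scaling by library size. Against P0-NPCs 2 homeostatic genes in place of 1 were lower with scaling by library size, with no filter, with all 4 groups in the model and without A-iSC replicate 3, and without that sample 1 other DAM gene in place of 0. Without AST replicate 2 and A-iSC replicate 3, 4 signalling genes were lower in A-iSCs than in ASTs in place of 2. The counts of the 10 genes relative to the shared genes moved with the homeostatic genes as reference. Against ASTs they went from 2 above and 5 below to 5 and 3. The shares over all genes went from 1.16% and 94.3% to 2.67% and 90.6%. Against P56-NPCs the counts went from 6 and 3 to 10 and 0, and the shares from 3.55% and 90.8% to 66.7% and 16.6%. With Csf1r alone 0 were below against P56-NPCs, beside 36.1% of all genes. Depth limits Trem2, Cst7 and the lowest values of Clec7a most.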
